A study of Homo sapiens with 4 samples.

Results

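MHC class I presentation is carried here by 9 genes: HLA-B, HLA-C, HLA-E and HLA-F, which encode class I heavy chains, B2M (the light chain), TAP1 and TAP2 (the peptide transporter), and the transcriptional regulators NLRC5 and CIITA. They are 9 of 20176 protein-coding genes annotated on hg19 by GENCODE, and were taken by name; every H3K27ac peak in the gene body or within 10 kb of it was collected. The mark, H3K27ac, is an acetylation of histone H3 at active regulatory DNA, and the ChIP-seq libraries came from K562, an established erythroleukaemia line of human origin. The cells carried TFAM-specific shRNA hairpin 1, TFAM-specific shRNA hairpin 2 or the non-targeting control shRNA shNT; TFAM packages mitochondrial DNA. The series asked how histone hyperacetylation in TFAM-deficient erythroid cells alters the mark genome-wide. Each condition was 1 library, so no value has a replicate error and no p-value is given. Whether the libraries differ through TFAM or through library making and sequencing depth cannot be told apart. Peaks come from bulk cells, in which fewer marked cells and a weaker mark per cell cannot be told apart.

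Class I molecules are a heavy chain paired with beta-2-microglobulin. They show peptides cut by the proteasome and pumped into the endoplasmic reticulum by the TAP transporter. NLRC5 is the transactivator of class I genes, and CIITA that of class II genes. Both act through a conserved promoter module that is bound by RFX, CREB/ATF and NF-Y factors, and interferon signalling adds to it. K562 is known for little class I on its surface and is a standard target of natural killer cells.

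There were 23819 peaks covering 54.4 Mb for hairpin 1, 27007 covering 61.9 Mb for hairpin 2 and 23413 covering 52.15 Mb for the control, at read depths that are unknown here. Hairpin 1 thus covered 1.04 times and hairpin 2 1.19 times the control length. Of 8 erythroid marker promoters, 5 had a peak in every list, among them HBZ, LMO2 and TFRC. HBG1 and GATA1 had no promoter peak in any list, and TAL1 had none in hairpin 2. The GATA1 gene body with 10 kb on each side had 1145 bp covered in hairpin 1, 6041 bp in hairpin 2 and 7688 bp in the control. That of HBG1 had nothing covered. Only reads with a single place in hg19 were kept, and how unique the HBG1 promoter is was not measured. None of 6 B and dendritic cell and none of 3 T cell markers had a promoter peak in every list. CD79A and CD3D had one in hairpin 1 alone. A promoter peak present in hairpin 1 and missing in the control was found for 3.18% of all coding genes.

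The promoter sequences of 6 of the 9 genes are shown from 250 bases before to 50 bases after the RefSeq start, because they hold both marked and unmarked genes with related regulatory elements. They were taken from RefSeq (GRCh38.p14), and each matched GRCh37 exactly at 1 place, which is the position given. The marked ones are B2M (plus strand, chr15:45003465-45003764), TAP1 (minus strand, chr6:32821432-32821731) and TAP2 (minus strand, chr6:32806467-32806766). The unmarked ones are HLA-B (minus strand, chr6:31324907-31325206), HLA-C (minus strand, chr6:31239820-31240119) and HLA-F (plus strand, chr6:29690961-29691260). HLA-E, NLRC5 and CIITA had no entry. A second TAP1 entry, 943 bp from the canonical start, is not shown and held none of the motifs described next. Capitals mark 4 motifs, searched on both strands and allowed to overlap: the interferon-stimulated response core (GAAA, any 2 bases, GAAA), the CRE-like box TGACG, the inverted CCAAT box ATTGG and the NF-kB consensus.
B2M: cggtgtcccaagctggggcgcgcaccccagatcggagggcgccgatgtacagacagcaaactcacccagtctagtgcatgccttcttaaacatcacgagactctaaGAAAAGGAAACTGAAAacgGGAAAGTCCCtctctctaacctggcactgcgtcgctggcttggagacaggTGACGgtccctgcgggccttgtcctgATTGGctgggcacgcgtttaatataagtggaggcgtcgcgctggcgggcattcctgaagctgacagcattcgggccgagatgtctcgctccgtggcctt
TAP1: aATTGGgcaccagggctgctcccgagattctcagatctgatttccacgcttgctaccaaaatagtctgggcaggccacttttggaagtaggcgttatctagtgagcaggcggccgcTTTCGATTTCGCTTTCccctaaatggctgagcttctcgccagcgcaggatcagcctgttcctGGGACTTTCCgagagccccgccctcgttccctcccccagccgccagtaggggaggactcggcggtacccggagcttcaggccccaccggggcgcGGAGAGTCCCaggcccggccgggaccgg
TAP2: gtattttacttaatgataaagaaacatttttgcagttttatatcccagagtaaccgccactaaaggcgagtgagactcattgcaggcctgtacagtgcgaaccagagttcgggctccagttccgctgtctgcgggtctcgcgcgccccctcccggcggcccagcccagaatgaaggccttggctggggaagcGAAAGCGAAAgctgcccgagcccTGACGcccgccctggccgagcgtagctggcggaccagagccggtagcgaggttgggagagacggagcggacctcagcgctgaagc
HLA-B: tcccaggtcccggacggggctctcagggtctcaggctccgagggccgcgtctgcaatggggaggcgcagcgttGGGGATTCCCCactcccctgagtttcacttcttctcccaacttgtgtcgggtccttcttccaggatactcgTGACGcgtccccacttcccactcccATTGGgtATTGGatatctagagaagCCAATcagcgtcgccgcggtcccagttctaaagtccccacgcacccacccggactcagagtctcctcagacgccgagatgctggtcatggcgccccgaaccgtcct
HLA-C: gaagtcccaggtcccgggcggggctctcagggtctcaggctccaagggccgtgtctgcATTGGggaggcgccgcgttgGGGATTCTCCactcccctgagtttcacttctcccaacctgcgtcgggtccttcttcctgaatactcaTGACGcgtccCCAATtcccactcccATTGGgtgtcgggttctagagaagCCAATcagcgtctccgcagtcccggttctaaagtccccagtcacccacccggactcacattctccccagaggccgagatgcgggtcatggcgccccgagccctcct
HLA-F: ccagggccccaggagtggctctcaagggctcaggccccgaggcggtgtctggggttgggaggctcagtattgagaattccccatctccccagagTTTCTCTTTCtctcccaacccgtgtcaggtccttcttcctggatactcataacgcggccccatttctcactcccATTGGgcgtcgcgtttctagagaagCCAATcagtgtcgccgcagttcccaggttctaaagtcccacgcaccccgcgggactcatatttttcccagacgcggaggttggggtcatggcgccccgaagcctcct

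The interferon core was in 4 of the 6 promoters (B2M, TAP1, TAP2 and HLA-F), against 3.57% of 35114 RefSeq promoter windows of the same length. Only exact matches to the pattern were counted. HLA-B and HLA-C had none, which does not show that they lack a variant of this element. The NF-kB consensus was in 4 (B2M, TAP1, HLA-B and HLA-C), against 5.91% of those windows. The short boxes are common: TGACG was in 4 of the 6 and in 24.6% of windows, and ATTGG in 5 of the 6 and in 34.6% of windows. TGACG followed on the same strand by ATTGG after 18 to 22 bases, a spacing chosen after these sequences were seen, was in B2M (21 bases between), HLA-B (20 bases) and HLA-C (20 bases), against 0.268% of windows. That arrangement was therefore present in a promoter with a peak in every list and in 2 promoters with none. The HLA-B and HLA-C windows were 88.5% identical to each other, and HLA-B and B2M 47.6%. These matches describe letters in a window, and binding was not tested.

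Of the 9 genes, 4 had a promoter peak in every library: HLA-E, B2M, TAP1 and TAP2. A promoter is here the start site of the canonical transcript with 1 kb on each side, and any overlap of 1 bp counts. The same 4 genes made up the count in hairpin 1, in hairpin 2 and in the control; none of the 9 gained or lost a promoter peak in either hairpin. Over all coding genes, 54.7% had a promoter peak in hairpin 1, 54.9% in hairpin 2 and 53.7% in the control, so 4 of 9 is not far from the background share. Over all coding genes 50.3% were marked in all 3 lists and 41.4% in none. A promoter peak was present in hairpin 1 but not in the control for 3.18% of genes and the reverse for 2.16%; for hairpin 2 these shares were 3.21% and 2.04%.

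**Figure D1:**
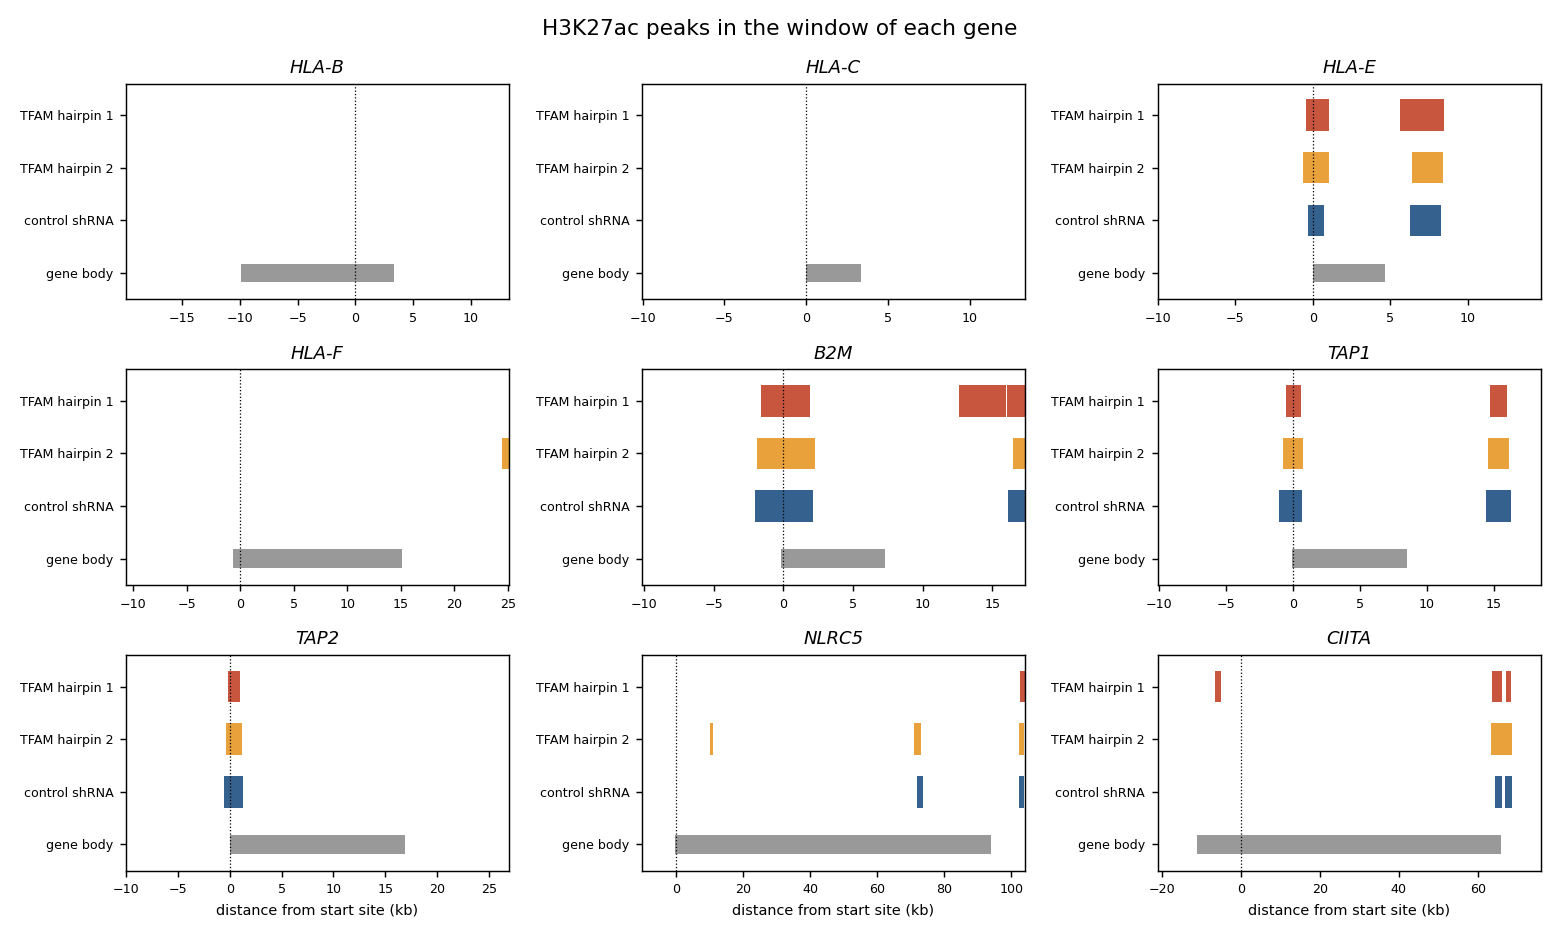
Peaks in the window of each of the 9 genes; the x axis is the distance from the canonical start site in kb, in the direction of transcription, coloured bars are peaks in the hairpin 1, hairpin 2 and control lists from top to bottom, and the grey bar is the gene body. Peaks are drawn up to the window edge, and 4 of the 9 genes (HLA-E, B2M, TAP1 and TAP2) have a peak over the start site in all 3 lists.

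B2M, the light chain shared by all class I molecules (chr15:45003556-45011049, plus strand), had the widest and highest-ranked promoter peak of the 9 genes within each list. The peak spanned 3532 bp in hairpin 1, 4207 bp in hairpin 2 and 4166 bp in the control. Relative to the start it ran from -1637 to 1894 bp in hairpin 1, from -1913 to 2293 bp in hairpin 2 and from -2056 to 2109 bp in the control. Hairpin 1 was thus the narrowest, and hairpin 2 and the control were nearly alike. A score percentile is the share of peaks in the same list with a lower score from the authors' caller, with ties counted in part. The lists differ in length, so percentiles from different lists do not show a change. The percentile was 92.55 in hairpin 1, 88.2 in hairpin 2 and 84.9 in the control. Among promoter peaks alone the percentiles were 83.2, 70.5 and 67.8, in the same order. The B2M start lies 194 bp from that of PATL2, a divergent neighbour, and the peak covers both starts. The width therefore belongs to the pair of genes.

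Downstream of B2M, a region at chr15:45019786-45022687 held a peak in every list and an annotated start of TRIM69. It spanned 2403 bp at score percentile 6.05 in hairpin 1, 2224 bp at 65.4 in hairpin 2 and 2855 bp at 22.6 in the control. It stood near the foot of the hairpin 1 list and above the middle of the hairpin 2 list. Hairpin 1 alone had another peak next to it, 3408 bp wide at score percentile 16.7, with 66 bp between them. This peak (chr15:45016312-45019719) lay outside any coding gene. It made the B2M window the most covered of the 9 in hairpin 1, with 8204 bp. The B2M window had 5043 bp covered in hairpin 2 and 5383 bp in the control.

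HLA-E, the heavy chain that presents signal peptides of other class I molecules to natural killer cell receptors (chr6:30457286-30461971, plus strand), was the only class I heavy chain gene of the 4 with a promoter peak. The peak spanned 1482 bp in hairpin 1, 1722 bp in hairpin 2 and 1019 bp in the control. Its score percentile was 59.9 in hairpin 1, 63.1 in hairpin 2 and 39.7 in the control. The peak was wider in both hairpins than in the control. Among promoter peaks alone its score percentile was 23.8 in hairpin 1, 23.7 in hairpin 2 and 11.9 in the control. Of the 10156 promoters marked in all lists, 56.2% had a wider peak in hairpin 1 than in the control and 65.9% a wider peak in hairpin 2. The width ratio was 1.45 for hairpin 1 and 1.69 for hairpin 2 over the control, at percentiles 90.7 and 93.2 of the same ratio over those promoters. A promoter peak at least 1.5-fold wider than in the control was found for 8.16% of these promoters in hairpin 1 and 11.1% in hairpin 2.

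A second HLA-E region lay past the gene, at chr6:30462881-30465775, and began 910 bp beyond the annotated gene end outside any coding gene. It spanned 2895 bp in hairpin 1, 2028 bp in hairpin 2 and 1998 bp in the control, and was wider than the promoter peak in each list. Its score percentiles were 60.6 in hairpin 1, 48.8 in hairpin 2 and 52.1 in the control.

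TAP1 and TAP2, the subunits of the peptide transporter, are encoded on the minus strand of the MHC, in a cluster with the immunoproteasome genes PSMB8 and PSMB9. The TAP1 promoter peak (gene at chr6:32812986-32821593) spanned 1075 bp in hairpin 1, 1463 bp in hairpin 2 and 1721 bp in the control. Its score percentile was 52.0 in hairpin 1, 67.1 in hairpin 2 and 71.4 in the control. TAP1 thus had its narrowest peak in hairpin 1 and its widest in the control. PSMB9, a catalytic immunoproteasome subunit, starts 488 bp away in the opposite direction and shares the peak.

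The TAP2 promoter peak (gene at chr6:32789610-32806516) followed the same order in width, with 1212 bp in hairpin 1, 1559 bp in hairpin 2 and 1863 bp in the control. Its score percentile was 65.3 in hairpin 1, 80.4 in hairpin 2 and 76.5 in the control. Among promoter peaks alone the percentiles were 16.9 in hairpin 1, 28.6 in hairpin 2 and 43.0 in the control for TAP1, and 30.4, 52.8 and 51.6 in the same order for TAP2. The control peak was 1.60 times as wide as the hairpin 1 peak at TAP1 and 1.54 times at TAP2. For hairpin 2 these ratios were 1.18 and 1.19. A narrower peak than in the control was found at 43.7% of the 10156 promoters in hairpin 1 and 34.0% in hairpin 2. A peak at least 1.5-fold narrower than in the control was found at 4.61% of them in hairpin 1 and 2.72% in hairpin 2. The log2 width ratio over the control was -0.68 for TAP1 and -0.62 for TAP2 in hairpin 1, where the median over those promoters was 0.04. In hairpin 2 it was -0.23 and -0.26, where the median was 0.11. PSMB8, whose start is 5308 bp from that of TAP2, had no promoter peak in any list. The TAP1 and TAP2 windows overlap, so their values share the region over the TAP2 start and are not separate evidence.

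**Figure D2:**
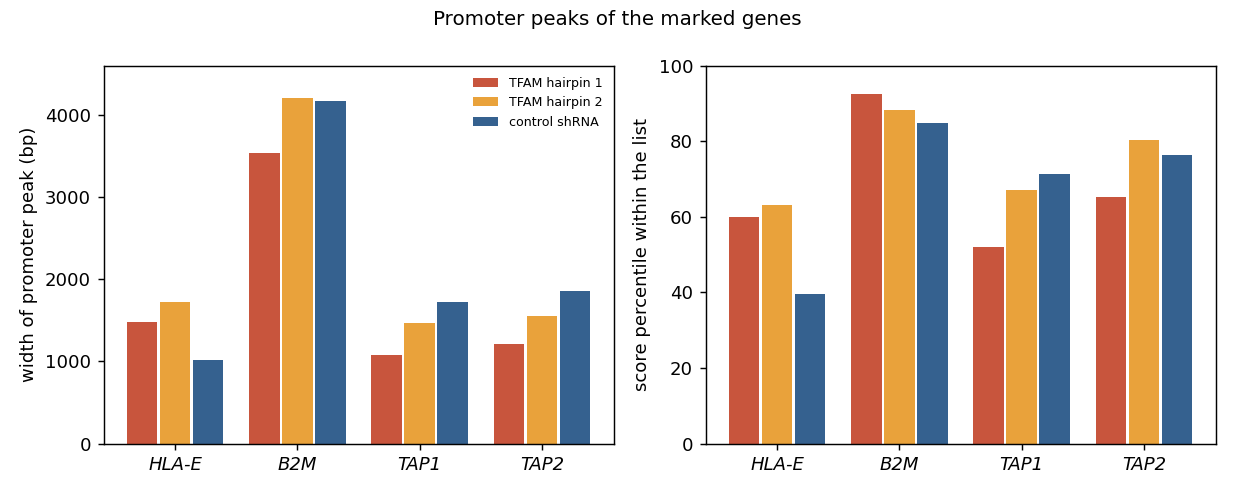
Width in bp (left) and score percentile within the list (right) of the promoter peak of HLA-E, B2M, TAP1 and TAP2; bars are the hairpin 1, hairpin 2 and control libraries, 1 library each, with no error. HLA-E is wider in both hairpins than in the control (1482 and 1722 bp against 1019 bp), and TAP1 and TAP2 are narrower in both.

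HLA-B and HLA-C, the classical heavy chains that present peptides to cytotoxic T cells, had no peak in their windows in any list. The HLA-B window ran over chr6:31311649-31344844 and the HLA-C window over chr6:31226526-31249907. The peak nearest to the HLA-B start lay 41.8 kb away in hairpin 1, 41.7 kb in hairpin 2 and 41.4 kb in the control. It is the region over an alternative start of MICA, a stress-induced ligand of natural killer cells. The nearest peak to HLA-C lay 72.9 kb away in hairpin 1, 67.3 kb in hairpin 2 and 67.0 kb in the control. Both genes thus sat in stretches without listed peaks in all 3 libraries.

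HLA-F, a nonclassical heavy chain (chr6:29690552-29706305), had no promoter peak in any list. A hairpin 2 peak at chr6:29715648-29717237 reached into its window, with 1590 bp in all, of which 658 bp lay inside. Its score percentile was 3.94, among the weakest of the hairpin 2 list, and hairpin 1 and the control had none there.

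Only reads with a single place in hg19 were kept, and class I genes resemble each other, so the uniqueness of their promoters was measured. Of all 64-base stretches in the 2 kb promoter window, 99.5% occurred once in GRCh37 for HLA-B, 99.5% for HLA-C, 93.8% for HLA-F and 98.5% for HLA-E, counting exact matches on both strands. With 32-base stretches the shares were 84.9% for HLA-B, 84.3% for HLA-C, 85.2% for HLA-F and 80.9% for HLA-E. By this exact measure HLA-E, which was marked, stood below the unmarked HLA-B and HLA-C at both lengths. HLA-F, also unmarked, stood below HLA-E at 64 bases and above it at 32 bases. Stretches that nearly match another place counted as found once, so the shares can overstate how unique a promoter is to mapped reads. Whether reads without a single place account for missing peaks was not tested. PDIA3, a loading chaperone with a peak in every list, was the lowest of 47 genes at 80.3% with 64-base stretches. B2M, TAP1 and NLRC5 were at 100% with either length, and TAP2 at 89.3% and 98.9%. The read length is unknown here, the reference held no alternative MHC haplotypes, and the part of K562 alleles that differ from it was not tested. No peak in the lists was named for a haplotype sequence.

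**Figure D3:**
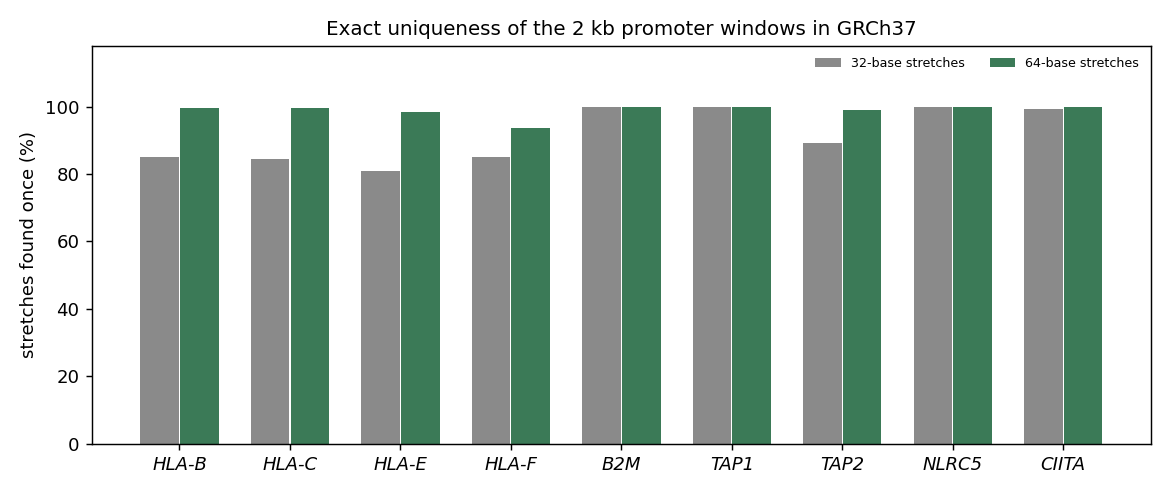
Share of 32-base and 64-base stretches of the 2 kb promoter window that occur once in GRCh37 by exact matching, for the 9 genes. The y axis is in percent. HLA-B and HLA-C, which had no peak, reach 99.5% with 64-base stretches, and HLA-E, which had a peak in every list, 98.5%. HLA-F, which had no promoter peak, is the lowest of the 9 genes at 93.8%.

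The MHC as a whole was not empty. From 100 kb before HLA-F to 100 kb after HLA-DPB1 (chr6:29590552-33157473), hairpin 1 had 82 peaks, hairpin 2 had 81 and the control had 79. Of all 141 coding genes there, 47.5% had a promoter peak in hairpin 1 (exact Clopper-Pearson 95% interval 39.05 to 56.1, counting error only), 62 of 141 in hairpin 2 (35.6 to 52.6%) and 48.9% in the control (40.4 to 57.5). In the rest of the genome the shares were 54.8% in hairpin 1, 54.95% in hairpin 2 and 53.75% in the control, all above the MHC shares, and in hairpin 2 also above the interval. Of the 122 coding genes of the MHC interval without an HLA symbol, 54.1% had a promoter peak in hairpin 1 (44.8 to 63.15), 61 of 122 in hairpin 2 (40.8 to 59.2%) and 55.7% in the control (46.5 to 64.7). Each of these intervals holds the share of the rest of the genome. Of the 19 HLA genes of the interval, HLA-E alone had a promoter peak in each list, a share of 5.26% with an interval of 0.133 to 26.0. These 19 include the heavy chain genes chosen here. All these intervals take genes as independent, while neighbours such as TAP1 and PSMB9 share a peak, so they can be too narrow.

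NLRC5, the class I transactivator (chr16:57023397-57117443, plus strand), had no promoter peak in any list. The nearest peak to its start lay 56.0 kb away in hairpin 1, 10.2 kb in hairpin 2 and 24.4 kb in the control. Inside the gene, a region over exons far from the start (chr16:57094451-57097280) had a peak of 2206 bp in hairpin 2 at score percentile 45.8 and of 1988 bp in the control at 10.8, and none in hairpin 1. Hairpin 2 alone had an intronic peak of 913 bp at score percentile 1.38 (chr16:57033623-57034535). The remaining peak in the window belonged to the promoter of CPNE2, a neighbouring gene, and was similar in length in the libraries, at 1492 bp in hairpin 1, 1493 bp in hairpin 2 and 1450 bp in the control. NLRC5 had 1492 bp covered in its window in hairpin 1, 4612 bp in hairpin 2 and 3438 bp in the control, and all that was covered in hairpin 1 was the CPNE2 promoter.

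CIITA, the class II transactivator (chr16:10960079-11036878, plus strand), had no promoter peak in any list either, and no peak held any of its 3 basic transcript starts. In hairpin 1 alone an intronic peak of 1426 bp lay at -6468 to -5043 bp from the canonical start, inside the annotated gene body, at score percentile 26.45. At the far end of the window, the promoters of DEXI and CLEC16A were marked in every list. They held 2 peaks of 2323 and 1289 bp in hairpin 1, a single peak of 5343 bp in hairpin 2, and 2 peaks of 1733 and 1773 bp in the control. The gap that hairpin 2 bridged was 1192 bp in hairpin 1 and 630 bp in the control. CIITA had 5038 bp covered in its window in hairpin 1, 5343 bp in hairpin 2 and 3506 bp in the control, and in hairpin 2 and the control that length lay entirely in the region of those 2 neighbours.

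Summed over the 8 merged windows (407343 bp), hairpin 1 had 11 peaks over 21398 bp, hairpin 2 had 11 peaks over 22428 bp and the control had 10 peaks over 18928 bp. The ratio over the control was 1.13 for hairpin 1 and 1.18 for hairpin 2, beside 1.04 and 1.19 for the whole lists. The peaks had median widths of 1492 bp in hairpin 1, 1722 bp in hairpin 2 and 1818 bp in the control. Joined across lists they made 13 regions. All 6 regions over a coding promoter were in every list, and so were 2 of the 7 others. These 2 were the regions downstream of HLA-E and B2M, and the one downstream of B2M holds an annotated start of TRIM69. The same counts were not made over regions of the whole genome, so they describe these 13 regions only.

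By window, B2M was at least 1.5-fold higher in hairpin 1 than in the control, while TAP1, TAP2 and NLRC5 were at least 1.5-fold lower, out of 6 genes covered in both. Over all genes covered in both, 15.8% were higher and 8.94% lower by that measure. The TAP1 window holds the TAP2 promoter peak, so the calls for TAP1 and TAP2 are not separate evidence. The B2M call rested on the hairpin 1 peak downstream of the gene, away from its promoter. In hairpin 2, CIITA was at least 1.5-fold higher and none was lower, where 21.8% of genes were higher and 5.54% lower. The CIITA length in hairpin 2 lay entirely in the region of the DEXI and CLEC16A promoters. The ratio of hairpin 1 over the control was 1.52 for B2M, 0.638 for TAP1, 0.651 for TAP2 and 0.434 for NLRC5. The NLRC5 ratio stood at percentile 2.37 of all genes. Both hairpins were compared with the same control library.

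**Figure D4:**
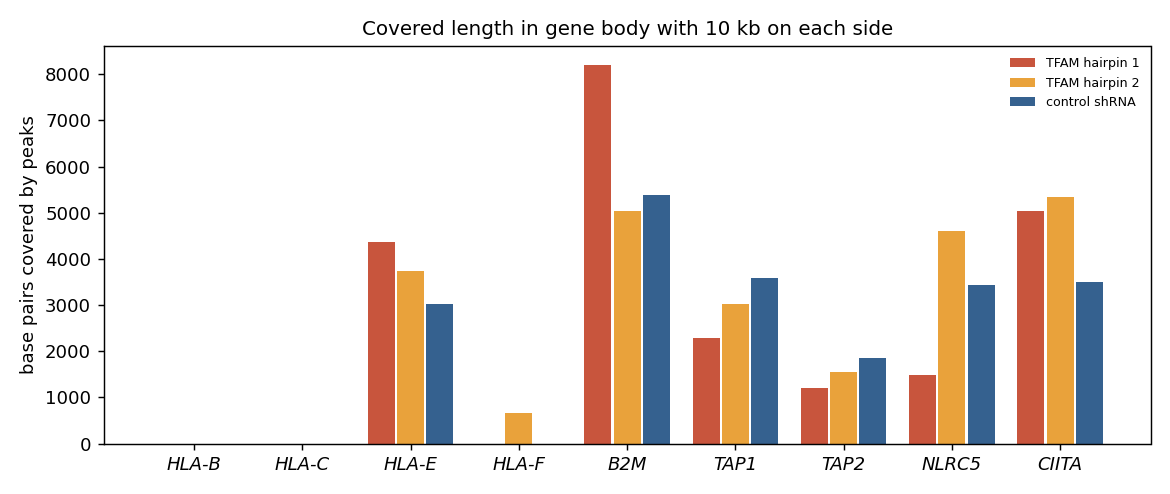
Base pairs covered by peaks in the gene body with 10 kb on each side, for each of the 9 genes and each library, with 1 library a bar and no error. B2M reaches 8204 bp in hairpin 1, NLRC5 has 1492 bp there, and HLA-B and HLA-C are at 0 in every library.

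The other genes of the pathway were read from 5 lists of 38 genes, of which 23 had a promoter peak in every list, 13 in none and 2 in some. Over all coding genes 50.3% had one in every list and 41.4% in none. These shares are the background for the counts of each list below as well. All 7 genes of class I peptide loading were marked in every list. The promoter peak of TAPBP (tapasin, which bridges TAP and class I) spanned 3815 bp in hairpin 1, 4108 bp in hairpin 2 and 3236 bp in the control. CANX (calnexin) had 5020, 4768 and 4449 bp in the same order, and CALR (calreticulin) 3397, 5452 and 2713 bp. CALR ranked at score percentile 65.3 in hairpin 1, 30.15 in hairpin 2 and 73.7 in the control. Of 5 genes of the immunoproteasome and its activator, 4 were marked in every list and PSMB8 in none. PSME1 and PSME2, the subunits of the interferon-induced proteasome activator, had promoter peaks of 1644 and 2738 bp in hairpin 1, 1653 and 3325 bp in hairpin 2, and 1855 and 2329 bp in the control.

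Of 10 regulators, 9 were marked in every list, including RFX5, RFXAP, RFXANK, NFYA, NFYB, NFYC and CREB1, whose products bind the class I and class II promoter module. RFXAP had a peak of 1698 bp in hairpin 1, 1754 bp in hairpin 2 and 882 bp in the control. IRF2, an interferon regulatory factor, had 3714, 4031 and 4104 bp in the same order, and NFYC 4105, 3250 and 3361 bp. IRF1, an interferon-induced activator of class I genes, was the exception: its promoter peak spanned 3402 bp in hairpin 1 and 2756 bp in the control and was missing in hairpin 2. A promoter peak present in the control and missing in hairpin 2 was found for 2.04% of all coding genes.

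None of 8 class II and class II loading genes had a promoter peak in any list, CD74 (the invariant chain) and HLA-DRA among them. HLA-DMA, a class II peptide editor, was the only one with any covered sequence in its window, at 7631 bp in hairpin 1, 7880 bp in hairpin 2 and 8295 bp in the control. Of 8 class I-like molecules, 3 were marked in every list (ULBP1, MR1 and HFE) and 4 in none. HFE, which controls iron uptake signalling, had a peak of 1578 bp in hairpin 1, 1438 bp in hairpin 2 and 1767 bp in the control. ULBP2, a ligand of the natural killer receptor NKG2D, had a promoter peak in hairpin 2 alone, 745 bp wide and at score percentile 3.001. It was absent when the lists were trimmed to equal length, and 3.21% of all coding genes had a promoter peak in hairpin 2 and none in the control. MICA and MICB were unmarked at the canonical start, and marked in every list when the starts of all basic transcripts were used or the promoter was widened to 2.5 kb on each side.

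**Figure D5:**
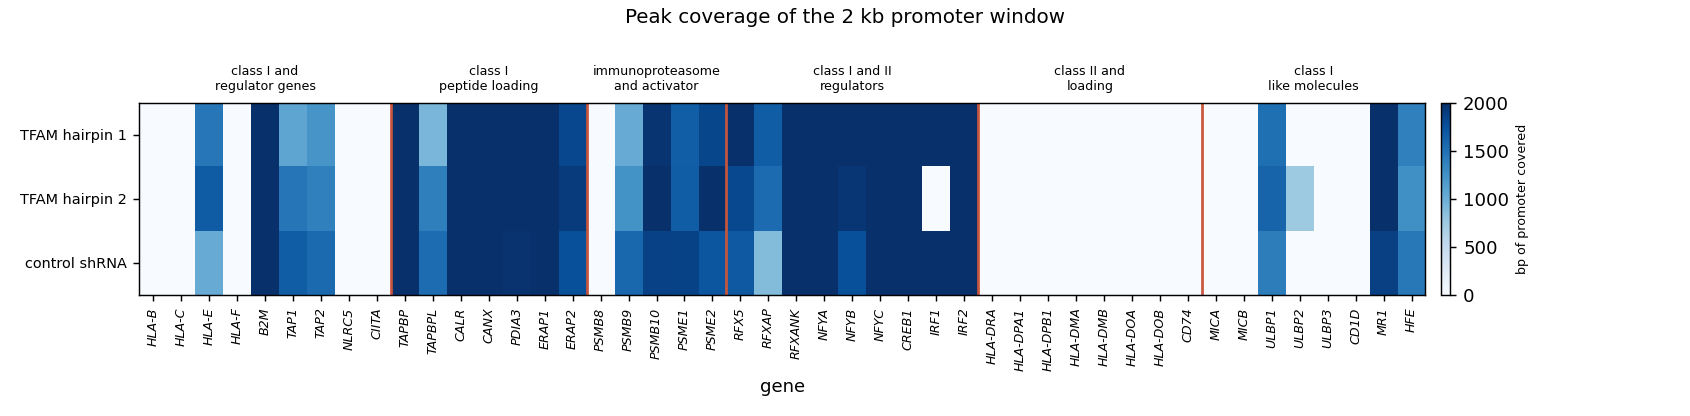
Base pairs of the 2 kb promoter window covered by peaks, for the 9 genes at the left and the further genes of the 5 lists (1 regulator is not drawn), with rows for hairpin 1, hairpin 2 and control. The 8 class II genes are blank in all 3 rows, the 7 peptide loading genes are filled in all 3, and IRF1 is blank in the hairpin 2 row.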

How the data were processed

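Peak lists of 3 K562 H3K27ac ChIP-seq libraries were used, 1 each for TFAM hairpin 1, TFAM hairpin 2 and control shRNA, grouped by title. Per the labels' protocols, cells grew in medium with 10% serum, sequencing was on a NextSeq500, and alignments to a single hg19 location were retained, from ChIP with an Abcam antibody. The submitters' processing notes list Bowtie 0.12.7 and Picard and give no roles. Peak names carry a MACS prefix; its version, threshold and use of input are not given in the sources used here. Input data were not analysed here. The deposited score per peak, from 50 up, is the authors' own value and ranks peaks within its list only. More reads can give more and wider peaks, and the depth is unknown.

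Positions are 1-based in hg19. Genes, with 20176 coding ones, came from GENCODE release 44 mapped to GRCh37. Covered length is the base pairs of a window under peaks. The 9 genes, the 5 pathway lists and the marker lists were chosen with earlier results of these data known. Named were the 9 genes, coding genes starting in their windows, and from each list those marked in some lists only and up to 3 others with the most covered control sequence; TRIM69, PDIA3, ULBP1, MR1, CD74 and HLA-DRA and the remaining regulators are named beyond that rule, after their values were seen. A readthrough gene without a symbol at the TAP2 promoter and HLA-DOB, which had no promoter peak, also start in the windows. Some genes that the rule names are left out. No test was run, since each group is 1 library. The overlap code was tested on simulated data. Alternatives were the top-scoring 50% of peaks per list, lists of equal length, other promoter and window sizes, all basic starts and a minimum of 50% of the promoter covered. Software was matplotlib 3.10.9, SciPy 1.17.1, pandas 2.3.3 and numpy 2.4.6 under Python 3.11.15.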

Additional observations from a re-analysis of the deposited data

Results flagged for a closer look

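In the B2M window, hairpin 1 lay above the control and hairpin 2 below it, with 8204 bp covered in hairpin 1, 5043 bp in hairpin 2 and 5383 bp in the control. The promoter peak itself was narrower in hairpin 1 (3532 bp) than in the control (4166 bp). The added length is the hairpin 1 peak of 3408 bp that lies outside any coding gene. In the NLRC5 window the hairpins lay on opposite sides the other way round, with 1492 bp in hairpin 1, 4612 bp in hairpin 2 and 3438 bp in the control. These differences were not tested, with 1 library a condition.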

How the results depend on the processing

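The count of genes with a promoter peak stayed at 4 in each library under all 6 alternatives run for it, with 1 exception. With the top-scoring 50% of peaks per list the control count was 3. HLA-E then had a promoter peak in both hairpins and none in the control. Each list was cut at its own middle score, and the HLA-E peak stood at percentile 39.7 of the control list. The peak is present in the full control list, so this does not show a gain. How many coding genes change in this way under this setting was not counted. With the top-scoring 50% of peaks per list, 7 peaks were left in the windows in hairpin 1, 7 in hairpin 2 and 6 in the control, and the hairpin 1 covered length was 14011 bp. With gene bodies alone there were 6, 7 and 6 peaks over 8344, 11097 and 8471 bp, in the same order, and the log2 ratio of hairpin 1 over the control changed sign, to -0.022 from 0.18; most covered length lies in the flanks. With 25 kb on each side the control covered length was 28996 bp. Of 47 genes, 6 changed promoter status in the higher-scoring 50% (HLA-E among them), 1 with equal list lengths (ULBP2) and 2 with wider promoters (MICA and MICB). A missing peak does not show an unmarked promoter, since the read depth and the caller's threshold are unknown. No paired analysis was possible because each condition is 1 library.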
